A study of Homo sapiens with 6 samples.

Results

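The 10 mucin genes described here each had a row among the 33451 genes of the count table. They were the secreted mucin genes MUC2, MUC5AC, MUC5B and MUC6 and the membrane mucin genes MUC1, MUC4, MUC13, MUC15, MUC16 and MUC20, and their rows were found by gene symbol. MUC2 and MUC5B were selected on measured values of the same comparison, namely on their fall, so their values are given as a description without a test, and the tests concern the other 8 genes. The low-count filter left 18183 genes tested, among them 7 of these 10, and removed MUC13, MUC15 and MUC16.

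Mucins are heavily O-glycosylated proteins that cover epithelial surfaces. The secreted, gel-forming mucins are large cysteine-rich polymers that make up mucus, and 4 of their genes lie side by side on chromosome 11. The membrane mucins carry a glycosylated ectodomain on a transmembrane anchor, stand out from the apical surface of the cell and can be shed from it, and several of them sit near growth factor receptors of the ERBB family. In the breast, MUC1 is the best known membrane mucin of luminal cells and of their tumours.

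The cells were MDA-MB-453, an established human breast cancer line, so all libraries came from 1 line. Each group gave 3 mRNA libraries after 5 days of culture. The treated group received 25(OH)D, the circulating form of vitamin D, at 100 nM, and the control group its alcohol solvent. The study's methods speak of biological replicates and the labels name no cultures, so the p-values measure the spread between these libraries, part of which may be technical. The comparison asked how 25(OH)D changes gene expression in these cells.

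The libraries held 33268860 to 40928176 counts. A count of 3, taken as the floor of detection in a library, was worth 0.0720 to 0.0921 CPM, the unit of counts relative to the library total scaled by its TMM factor, and this floor covers counting error only. Among gene values from 1 to 20, 66.0% to 68.0% were even numbers, against 50.8% to 52.1% of values over 200, so a count of 2 at these low genes cannot be taken as 2 molecules. The share of counts from mitochondrial genes was 7.85% to 7.99% in control and 8.89% to 9.24% in 25(OH)D, and its part in the results below was not tested. Luminal epithelial markers were abundant, with a summed level of 4365 to 4501 CPM in control and 4524 to 4556 CPM in 25(OH)D over 9 genes, although ESR1, the oestrogen receptor gene, had at most 4 counts in any library. Of these 9 genes 8 were tested, 4 were higher and 3 lower, against 17.3% and 16.5% of all genes tested. The 3 basal markers summed to 0.480 to 0.899 CPM in control and 0.522 to 1.17 CPM in 25(OH)D, with 1 of 2 tested genes lower. The 3 leukocyte markers summed to at most 0.109 CPM in control and 0.364 CPM in 25(OH)D, the 2 listed endothelial markers to at most 0.489 and 0.430 CPM, and none of these 5 genes was tested. The 3 fibroblast markers summed to 36.4 to 39.0 CPM in control and 32.0 to 34.6 CPM in 25(OH)D. Nearly all of that was COL1A1, and the other fibroblast markers, COL1A2 and DCN, had at most 16 counts in any library. COL1A1 was the 1 tested gene of that list and was lower by a log2 fold change of -0.18 (adjusted p = 0.032 by the edgeR test), a call that was lost without control replicate 1, control replicate 2, 25(OH)D replicate 1 or 25(OH)D replicate 2, with adjusted p from 0.0984 to 0.123.

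After 25(OH)D the cells held more of 3 membrane mucin transcripts and less of MUC5AC, a secreted one. Of the 8 genes not chosen for their fall, 3 rose at an adjusted p under 0.05. All 3 were membrane mucins, namely MUC1, MUC4 and MUC20. One fell, the secreted MUC5AC, and MUC6 did not pass the test, while MUC13, MUC15 and MUC16 were too low to be tested. Over all genes tested, 17.3% were called higher and 16.5% lower by this rule, with a median log2 fold change of -0.01. At the study's limits, a log2 fold change beyond 1 in either direction with an unadjusted p under 0.05, MUC1 and MUC4 were higher and MUC5AC was lower, against 4.02% of all tested genes higher and 2.63% lower. MUC5AC passed the low-count filter through the control libraries alone, so a gene with its counts could only be tested because it was high there, whereas MUC1, MUC4 and MUC20 had at least 13 counts in every library. With no filter, over 33451 genes, the same counts of MUC5AC gave a log2 fold change of -3.53, which is no separate support.

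**Figure D1:**
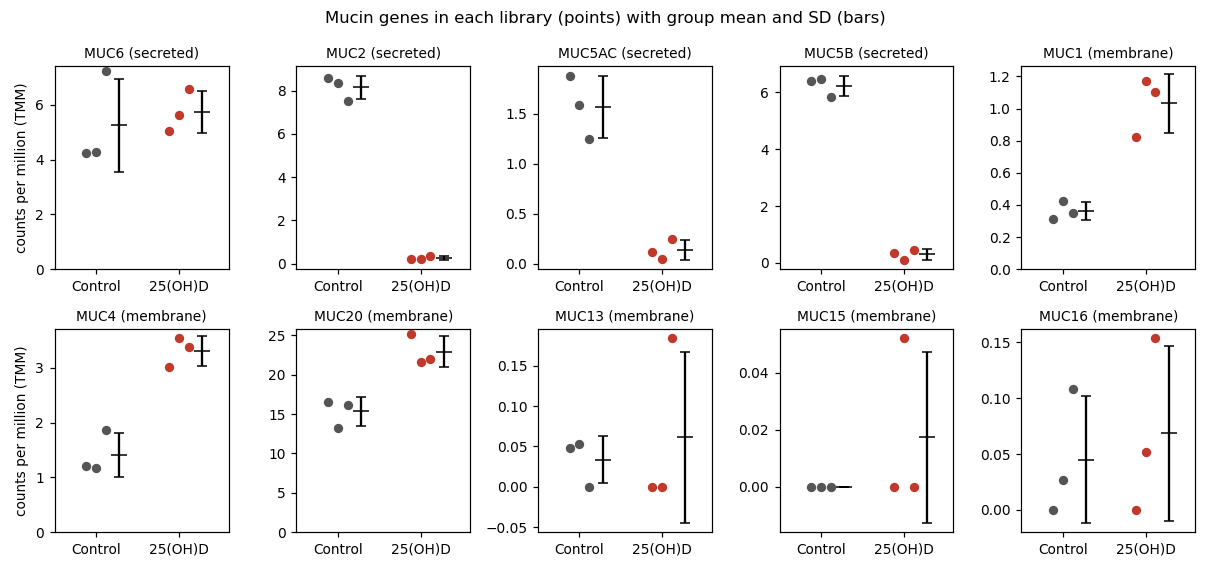
CPM of each mucin gene in each of the 6 libraries, with control in grey, 25(OH)D in red, and the group mean and SD as black bars. Each panel has its own axis, and the 25(OH)D points lie above all control points for MUC1, MUC4 and MUC20 and below them for MUC2, MUC5AC and MUC5B, while those of MUC6 lie among them.

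MUC1, the membrane mucin whose shed ectodomain is followed as a blood marker in breast cancer, was nearly silent in control. The gene lies at chr1:155185824-155192916 on the minus strand of GRCh38. Control libraries held 13, 16 and 13 of its counts and 25(OH)D libraries 29, 45 and 36. The lowest 25(OH)D library thus stood above the highest control library, and the groups did not overlap. The mean level was 0.363 ± 0.0560 CPM (SD, n = 3) in control and 1.03 ± 0.183 CPM in 25(OH)D. MUC1 rose 2.84-fold, with a 95% interval of 1.67 to 4.82 and a log2 fold change of 1.51 (SE 0.354, adjusted p = 0.00426 by the edgeR test). Even after the rise its level per length was higher than that of only 8.67% of the tested genes, against 2.58% in control.

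MUC4, a large membrane mucin known to bind the receptor ERBB2, rose by a similar amount. It lies at chr3:195746765-195812277 on the minus strand. Its control libraries held 50, 44 and 69 counts and its 25(OH)D libraries 106, 136 and 110. No 25(OH)D library fell within the range of the control libraries. The mean was 1.41 ± 0.400 CPM in control and 3.31 ± 0.267 CPM in 25(OH)D. The rise was 2.35-fold, with a 95% interval of 1.70 to 3.24 and a log2 fold change of 1.23 (SE 0.217, adjusted p = 4.78e-04). The 95% intervals of MUC1 and MUC4 overlapped over most of their length, and the difference between the 2 genes was not tested.

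MUC20, a shorter membrane mucin described as a partner of the receptor MET, was the most abundant mucin gene in both groups. It lies at chr3:195720882-195741123 on the plus strand, 5.64 kb from MUC4. It had 690, 502 and 595 counts in control and 885, 830 and 715 in 25(OH)D. The lowest 25(OH)D library was above the highest control library, also after scaling, with 21.6 CPM against 16.6 CPM. The mean went from 15.3 ± 1.80 CPM to 22.9 ± 1.98 CPM, a 1.49-fold rise with a 95% interval of 1.30 to 1.72 and a log2 fold change of 0.58 (SE 0.0948, adjusted p = 2.65e-04). MUC20 was the tested member with the smallest change that passed the test, and it did not reach a log2 fold change of 1.

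The reads of MUC20 cannot be told fully apart from those of related genes. Of its 4249 exon bases, 1820 (42.8%) also belong to exons of LINC00969, named MUC20-OT1 in GENCODE, on the same strand. In the annotated transcripts 43.7% of the 100-base stretches of MUC20 occur in another gene, mainly MUC20-OT1 and the pseudogene MUC20P1. LINC00969 had 5507, 5293 and 5052 counts in control and 5430, 6004 and 4913 in 25(OH)D, with a log2 fold change of 0.17 (SE 0.0409, adjusted p = 0.00448). MUC20P1 had 194, 181 and 194 counts in control and 257, 275 and 204 in 25(OH)D, with a log2 fold change of 0.50 (SE 0.123, adjusted p = 0.00589). The value of MUC20 itself is therefore uncertain, and the ratio of MUC20P1 to MUC20 counts ranged from 0.281 to 0.361 in control and from 0.285 to 0.331 in 25(OH)D. The other 9 mucin genes shared no such stretch with another gene.

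The remaining membrane mucin genes were at or near the floor. MUC13, a mucin of the intestinal surface, had 2, 2 and 0 counts in control and 0, 0 and 6 in 25(OH)D. MUC15 had 0 counts in all control libraries and 0, 2 and 0 in 25(OH)D. MUC16, which carries the antigen used as an ovarian cancer marker, had 0, 1 and 4 counts in control and 0, 2 and 5 in 25(OH)D. The 2 groups overlapped for each of these genes. A change of these 3 genes was not detectable at this depth, and no fold is given for them.

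Of the secreted mucins, MUC5AC, the gel-forming mucin of the airway and the gastric surface, fell. It lies at chr11:1157953-1201138 on the plus strand, between MUC2 and MUC5B. It had 78, 60 and 46 counts in control and 4, 2 and 8 in 25(OH)D. All 25(OH)D libraries were far below the lowest control library, and 1 of them was under the floor of 3 counts. The mean was 1.57 ± 0.312 CPM in control and 0.137 ± 0.0988 CPM in 25(OH)D. MUC5AC was 11.6-fold lower, with a 95% interval of 5.93 to 22.6 and a log2 fold change of -3.53 (SE 0.448, adjusted p = 2.55e-05). It passed the low-count filter through the control libraries alone, so it could be tested only because it was high there. Without 25(OH)D replicate 3, the highest of its group, the log2 fold change was -4.20.

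MUC6, a gel-forming mucin of gastric and duodenal glands, showed no change that passed the test. It lies at chr11:1012821-1036706 on the minus strand. It had 177, 162 and 266 counts in control and 177, 216 and 214 in 25(OH)D, and the groups overlapped. The mean was 5.25 ± 1.71 CPM in control and 5.74 ± 0.773 CPM in 25(OH)D, with a log2 fold change of 0.13 (SE 0.192, 95% interval -0.28 to 0.54, adjusted p = 0.652). Control replicate 3, at 7.22 CPM, stood above the other control libraries at 4.25 and 4.28 CPM. Without that library the log2 fold change was 0.43 with an adjusted p of 0.0515, and without control replicate 1 or control replicate 2 it was under 0.01. The lower end of the MUC6 interval lay well above the upper end of the MUC5AC interval, which was -2.57.

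MUC2, the main mucin of intestinal mucus, and MUC5B, a mucin of airway and salivary mucus, were the genes selected on their fall. MUC2 lies at chr11:1074875-1110511 and had 357, 315 and 277 counts in control and 7, 8 and 12 in 25(OH)D. MUC5B lies at chr11:1223066-1262172 and had 267, 245 and 215 counts in control and 12, 4 and 15 in 25(OH)D. Both were low in every 25(OH)D library, with a log2 fold change of -4.98 for MUC2 and -4.40 for MUC5B. The count of MUC2 was 1.29 to 1.34 times that of MUC5B in the 3 control libraries and 0.583, 2.00 and 0.800 times in the 25(OH)D libraries, where both counts were small. Of the secreted mucins not chosen for their fall, MUC5AC had a 95% interval of -4.50 to -2.57 on the log2 scale and MUC6 one of -0.28 to 0.54.

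**Figure D2:**
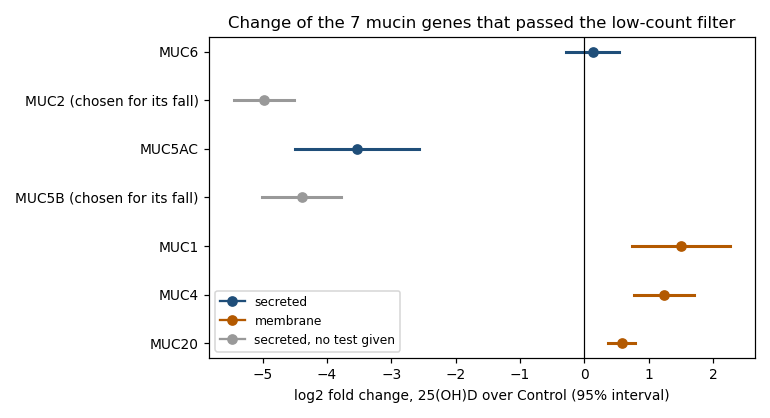
Log2 fold change of 25(OH)D over control for the 7 mucin genes that passed the low-count filter, with 95% intervals as lines. The intervals of MUC1, MUC4 and MUC20 lie above 0 and that of MUC5AC below 0, that of MUC6 includes 0, and MUC2 and MUC5B, in grey, are shown without a test because they were chosen for their fall.

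The order of the mucin genes by level per length (RPKM) differed between the groups. In control MUC20 led with 3.66 ± 0.424 RPKM, followed by MUC2 with 0.652 ± 0.0469 and MUC6 with 0.632 ± 0.202, whose libraries overlapped each other. MUC5B came next with 0.341 ± 0.0207 RPKM. MUC5AC, MUC1 and MUC4 followed at 0.0913, 0.0780 and 0.0672 RPKM, and neighbours in this order overlapped. In 25(OH)D MUC20 led again with 5.30 ± 0.442 RPKM, and MUC6 was next with 0.670 ± 0.0889. MUC1 with 0.216 ± 0.0391 RPKM and MUC4 with 0.153 ± 0.0130 RPKM then stood above the remaining 6 genes without overlap, and MUC2, MUC13, MUC5B, MUC5AC, MUC15 and MUC16 were all at 0.0201 RPKM or below, with neighbours overlapping. MUC20 exceeded 55.0% of the tested genes in RPKM in control and 63.7% in 25(OH)D, and MUC6 exceeded 20.5% and 21.6%.

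**Figure D3:**
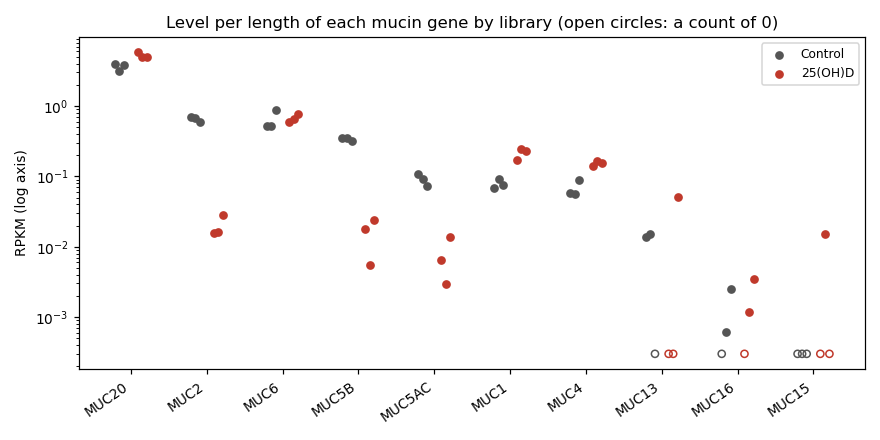
RPKM of each mucin gene in each library on a log axis, in the order of the control means, with control in grey and 25(OH)D in red. Open circles at the bottom mark libraries with a count of 0, and MUC1 and MUC4 in 25(OH)D lie above MUC2, MUC5B and MUC5AC, which they lay below or beside in control.

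The make-up of the mucin transcripts is given as a description, since 2 of the genes in it were chosen for their fall. The 4 secreted genes together had 879, 782 and 804 counts in control against 200, 230 and 249 after 25(OH)D. Their share of the summed mucin RPKM was 28.8% to 32.8% in control and 9.27% to 13.1% in 25(OH)D. Without MUC2 and MUC5B the share of MUC5AC and MUC6 in the summed RPKM of the other 8 genes was 13.2% to 19% in control and 8.82% to 12.4% in 25(OH)D. Mean RPKM in control and 25(OH)D was 0.0913 and 0.00771 for MUC5AC, 0.632 and 0.670 for MUC6, and 3.66 and 5.30 for MUC20. Both shares therefore also depend on MUC20 in the total, whose value is uncertain. MUC6 supplied nearly all of the secreted counts left in 25(OH)D. There MUC2, MUC5AC and MUC5B together had 23, 14 and 35 counts, against 702, 620 and 538 in control. The 6 membrane genes had 755, 565 and 681 counts in control and 1020, 1015 and 872 in 25(OH)D, of which MUC20 made up the largest number. In bulk RNA such as this, fewer cells that express a gene and less RNA per cell cannot be told apart.

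The 4 secreted genes lie within 249 kb of chromosome 11, in the order MUC6, MUC2, MUC5AC and MUC5B. MUC6 is read on the minus strand, away from the other 3 genes, which are on the plus strand, and it is separated from MUC2 by 38.2 kb. The 3 genes that were low after 25(OH)D were neighbours, with gaps of 47.4 kb between MUC2 and MUC5AC and 21.9 kb between MUC5AC and MUC5B. None of the 3 nearest tested genes on each side fell, with log2 fold changes from -0.05 for TOLLIP to 1.08 for TSPAN4, a tetraspanin gene. AP2A2, which codes for an adaptor protein subunit of endocytosis and ends 0.576 kb from MUC6, had a log2 fold change of 0.24 (SE 0.0702, adjusted p = 0.0174), a call lost without control replicate 2 (adjusted p = 0.0586) or 25(OH)D replicate 1 (adjusted p = 0.0675). TOLLIP, a regulator of Toll-like receptor signalling 12.2 kb beyond MUC5B, had a log2 fold change of -0.05 (SE 0.101, adjusted p = 0.730). An antisense gene of MUC5B, MUC5B-AS1 by its GENCODE name, overlaps 434 of its exon bases and had 24, 24 and 7 counts in control and 1, 0 and 2 in 25(OH)D. It was below the filter, and since the strand setting of the counting is not given, its reads and those of MUC5B in the shared bases cannot be told apart.

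**Figure D4:**
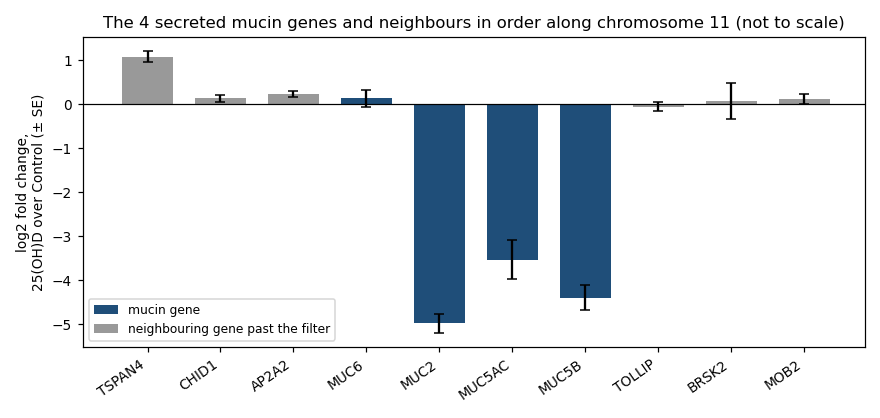
Log2 fold change of 25(OH)D over control, with SE, for the 4 secreted mucin genes in blue and the 3 nearest tested genes on each side in grey, in order along chromosome 11 and not to scale. Bars of MUC2, MUC5AC and MUC5B reach below -3, while MUC6, AP2A2 and TOLLIP lie between -0.05 and 0.24, and MUC2 and MUC5B were chosen for their fall.

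The neighbours of the membrane mucins were mixed. TRIM46, a microtubule-associated protein gene that ends 0.853 kb from MUC1 on the other strand, had 74, 80 and 48 counts in control and 166, 182 and 191 in 25(OH)D, a log2 fold change of 1.55 (SE 0.193, adjusted p = 2.04e-05). It was singled out after its values were seen. RP11-201K10.3, a gene of the same strand that shares 48 exon bases with MUC1, had a log2 fold change of 0.48 (SE 0.141, adjusted p = 0.0174), which did not pass without control replicate 3 (adjusted p = 0.0636) or 25(OH)D replicate 1 (adjusted p = 0.0977). AC234582.2 and AC234582.1, which overlap MUC1 by 287 and 223 bases on the other strand, had at most 2 counts in any library. TNK2, a kinase gene 51.1 kb beyond MUC4 and also singled out afterwards, fell while MUC4 rose, with a log2 fold change of -0.68 (SE 0.0503, adjusted p = 1.14e-07).

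The RefSeq promoter table was matched by symbol for 5 of the 10 genes, namely MUC1, MUC2, MUC4, MUC13 and MUC16, on GRCh38.p14. The 250 bases before the RefSeq start are shown for MUC1, the membrane gene with the largest rise, and for MUC2 of the chromosome 11 group, which was low after 25(OH)D, read 5′ to 3′ on the strand of the gene. Capitals mark matches, on either strand, to 8 strings. These were the nuclear receptor hexamers AGGTCA, with its variants AGTTCA and, of the same kind, GGTTCA, the E-box CACGTG, the forkhead string TGTTTAC, the GC box GGGCGG, the string TATAAA of the TATA box and, lastly, GGAAAG. The windows are chr1:155192916-155193165 (minus strand) for MUC1 and chr11:1074624-1074873 (plus strand) for MUC2. For MUC4 the RefSeq start lies downstream of the start in the count table. Its window of chr3:195811930-195812179 falls within its first counted exon and is not shown. The MUC13 window, chr3:124934752-124935001, lies inside the counted gene, which starts at 124953819 on the minus strand. The MUC16 window, chr19:9065752-9066001, lies far upstream of its counted start at 8981342. The matches given for MUC13 and MUC16 therefore do not concern the starts of the counted genes. Those given for MUC4 lie downstream of its counted start, not before it.
MUC1: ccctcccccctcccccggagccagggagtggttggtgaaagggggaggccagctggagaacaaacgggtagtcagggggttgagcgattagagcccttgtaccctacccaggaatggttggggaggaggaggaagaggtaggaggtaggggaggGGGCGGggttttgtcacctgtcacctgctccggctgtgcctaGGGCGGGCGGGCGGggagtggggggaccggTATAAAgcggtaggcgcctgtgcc
MUC2: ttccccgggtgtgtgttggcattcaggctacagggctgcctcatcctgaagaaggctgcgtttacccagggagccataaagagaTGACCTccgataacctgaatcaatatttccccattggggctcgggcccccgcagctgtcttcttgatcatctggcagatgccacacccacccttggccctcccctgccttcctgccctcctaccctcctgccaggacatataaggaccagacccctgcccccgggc

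AGGTCA, a hexamer bound by many nuclear receptors, matched once on the minus strand in MUC4 at position -202 and in MUC2 at position -166, counted back from the annotated start. It was thus held by the RefSeq window of a gene that rose and by that of a gene that was low after 25(OH)D. The match in MUC4 lies downstream of the start of the counted gene. Of 35116 RefSeq promoters of 300 bases, 13.8% held this hexamer. None of these 5 promoters held 2 of the nuclear receptor hexamers as a direct repeat spaced by 3 bases, a layout found in 0.0370% of all promoters. The hexamers AGTTCA (10.4% of all promoters) and GGTTCA (8.62%), the E-box (7.26%) and the forkhead string (3.42%) had no match in any of the 5. The GC box matched 4 times in MUC1 at positions -96, -54, -50 and -46, of which the last 3 overlap, and once each in MUC4, MUC16 and, past the start, MUC2, against 45.0% of all promoters. TATAAA matched in MUC1 at position -24 (11.5% of all promoters) and GGAAAG on the minus strand in MUC4 at position -109 (26.3%). MUC13 held none of these strings. The GC content of the 250 bases was 66.0% in MUC1, 61.6% in MUC16, 60.4% in MUC4, 59.6% in MUC2 and 41.6% in MUC13. The median over the same 250 bases of all promoters was 58.0%. These are matches of letters only.

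Long repeats inside a mucin gene can limit how its reads are placed. In the longest annotated transcript, 32.5% of the 100-base stretches of MUC1 occurred more than once in that same transcript. This share was 19.1% in MUC5B, 16.4% in MUC20, 13.9% in MUC2, 13.1% in MUC4 and 10.5% in MUC5AC. It was 0 in MUC6, MUC13 and MUC15 and 0.316% in MUC16. How reads from repeats were counted is not given in the sources used here, and their part in the levels was not tested.

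Of 16 other mucin or mucin-like genes, 10 were listed and 5 tested, with a median log2 fold change of 0.19 against -0.01 for all genes. Of these, 1 was higher and 2 were lower, against 17.3% and 16.5% of all genes tested. MUCL1, a small secreted mucin-like gene of the breast, had 558, 471 and 582 counts in control and 304, 374 and 278 in 25(OH)D, with no overlap. It fell, with a log2 fold change of -0.63 (SE 0.106, adjusted p = 3.47e-04). PODXL, a sialomucin of the apical membrane, fell by 0.59 on the log2 scale (SE 0.124, adjusted p = 0.00193), and CD164, a sialomucin of endosomes and the cell surface, rose by 0.19 (SE 0.0398, adjusted p = 0.00173). MUC19, a further gel-forming mucin, had 74, 84 and 68 counts in control and 72, 119 and 92 in 25(OH)D, with a log2 fold change of 0.45 that did not pass (adjusted p = 0.118) except without 25(OH)D replicate 1 (adjusted p = 0.0444). MUC3A, MUC7, MUC12 and MUC22 were listed at no more than 6 counts in any library.

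Partners of the mucus gel were mostly at or near the floor. Of 20 listed genes 18 were in the table and 6 were tested, with a median of -0.10. Of these, 1 was higher and 1 lower, against 17.3% and 16.5% of all genes tested. Without control replicate 2 or without 25(OH)D replicate 1 there were 2 higher. TFF1, a trefoil peptide secreted together with MUC5AC in the stomach, had 40, 48 and 44 counts in control and 10, 2 and 0 in 25(OH)D. It fell by 3.30 on the log2 scale (SE 0.613, adjusted p = 7.47e-04), and by 5.18 without 25(OH)D replicate 1. TFF1 passed the low-count filter through the control libraries alone. With no filter the same counts gave a log2 fold change of -3.29, which is no separate support. DMBT1, a secreted scavenger glycoprotein of mucosal fluids, went the other way, from 221, 163 and 116 counts to 2509, 2529 and 2152, with a log2 fold change of 3.98 (SE 0.122, adjusted p = 6.36e-12). AGR2, the disulfide isomerase of mucin folding, was abundant at 154 ± 4.69 CPM in control and 145 ± 6.92 CPM in 25(OH)D and did not pass the test (adjusted p = 0.172). The goblet cell products FCGBP, CLCA1 and ZG16 had at most 4 counts in any library.

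Among 23 listed regulators of mucin genes 20 were in the table and 15 were tested, with a median of -0.06. Of these, 2 were higher and 5 lower, against 17.3% and 16.5% of all genes tested. SPDEF, a driver of goblet cell differentiation, rose by 0.40 on the log2 scale (SE 0.0499, adjusted p = 2.05e-05), and HES1, a Notch target, rose by 0.83 (SE 0.0524, adjusted p = 1.85e-08). KLF4, needed for goblet cells of the colon, had 363, 341 and 302 counts in control and 137, 157 and 120 in 25(OH)D. It fell by 1.15 on the log2 scale (SE 0.116, adjusted p = 2.65e-06). FOXA1, SP1 and CREB3L1 fell by 0.46, 0.22 and 0.29. The intestinal regulators ATOH1 and CDX2 had at most 2 counts in any library.

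The genes of secretory granule docking and release moved in both directions. Of 20 listed genes 19 were tested, and the median log2 fold change was 0.17. Of these, 8 were higher and 3 lower, against 17.3% and 16.5% of all genes tested. VAMP8, a vesicle SNARE of mucin granules, and RAB27A, a granule GTPase, each rose by 0.42. SNAP23, a SNARE of the plasma membrane, rose by 0.17. SYTL2, a tether of RAB27, fell by 0.79 (SE 0.0613, adjusted p = 1.76e-07), and RAB27B, the other RAB27 gene, fell by 0.55. MYO5C, a myosin of secretory granules, fell by 0.12 (adjusted p = 0.0177), a call lost without control replicate 2 (adjusted p = 0.108), 25(OH)D replicate 1 (adjusted p = 0.0771) or 25(OH)D replicate 2 (adjusted p = 0.0654).

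Mucin glycosylation genes were also mixed. Of 26 listed enzymes that start and branch the O-glycans 16 were tested, with a median of 0.20. Of these, 7 were higher and 4 lower, against 17.3% and 16.5% of all genes tested. The most abundant enzyme of the list, GALNT6, attaches the first sugar to serine or threonine. It rose from 212 ± 5.24 CPM to 284 ± 9.70 CPM, a log2 fold change of 0.42 (SE 0.0398, adjusted p = 1.26e-06). GALNT2 and GALNT3, of the same enzyme family, rose by 0.63 and 0.37, and ST3GAL1, which sialylates the core, rose by 0.62. GALNT7, GALNT10 and ST6GALNAC2 fell by 0.31, 0.29 and 0.48. GCNT1, a branching enzyme, had 98, 86 and 65 counts in control and 38, 50 and 36 in 25(OH)D and fell by 0.87 (SE 0.228, adjusted p = 0.00847). GCNT3, the branching enzyme of mucin-secreting epithelia, had at most 7 counts in any library.

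Of 21 genes for receptors, adaptors and sheddases linked to membrane mucins 18 were tested, with a median of -0.03. Of these, 6 were higher and 5 lower, against 17.3% and 16.5% of all genes tested. ADAM9, a sheddase, rose by 0.75 (SE 0.0390, adjusted p = 2.41e-09), and ADAM10, a related protease, rose by 0.27. ADAM17 and MMP14, also proteases of this list, did not pass the edgeR test. Their log2 fold changes were 0.05 (adjusted p = 0.551) and 0.29 (adjusted p = 0.469). ERBB3, an ERBB receptor, and LGALS3BP, a galectin-binding glycoprotein, rose by 0.35 and 0.79. ERBB4, another ERBB receptor, had 52, 17 and 47 counts in control and 4, 2 and 4 in 25(OH)D and fell by 3.35 (SE 0.563, adjusted p = 3.25e-04). It too passed the filter through the control libraries alone. With no filter the same counts gave a log2 fold change of -3.34, which is no separate support. The adaptor GRB2, the membrane linker EZR and the junction protein JUP fell by 0.21, 0.17 and 0.21. MET, the receptor linked to MUC20, had at most 6 counts in any library, and MSLN, the ligand of MUC16, at most 15.

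**Figure D5:**
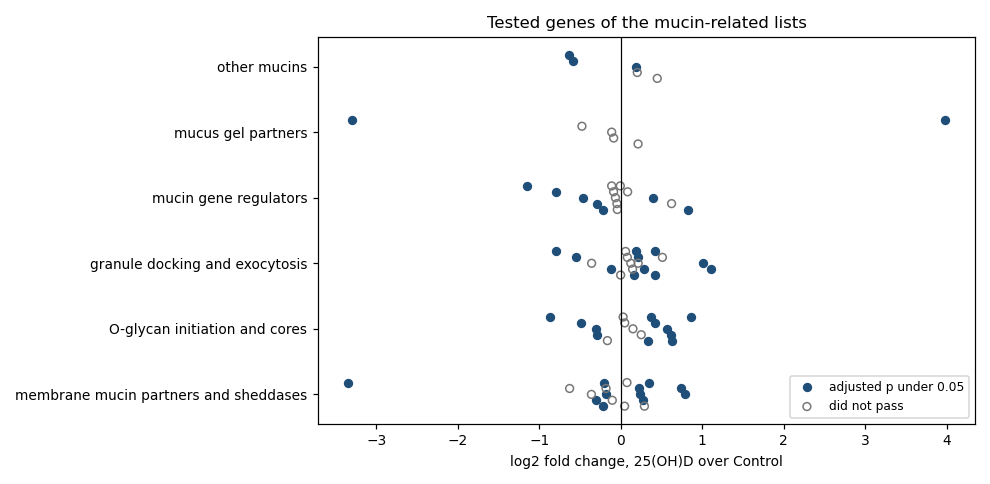
Log2 fold change of 25(OH)D over control for each tested gene of the 6 mucin-related lists, with filled points where the adjusted p was under 0.05 and open points elsewhere. Every list has filled points on both sides of 0, and the widest changes are DMBT1 at 3.98, ERBB4 at -3.35 and TFF1 at -3.30.

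No library of one group lay within the range of the other for MUC1, MUC4, MUC20 and MUC5AC, and this was so for 45.7% of all genes tested. MUC1 and MUC20 kept their direction and their call in all 14 alternative settings, with adjusted p up to 0.0255 and 0.0184. MUC4 and MUC5AC lost the call in 1 of 14, the log2 of RPKM with 1 added.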

How the data were processed

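The 6 libraries were stranded, paired-end mRNA libraries. The authors deposited counts, raw whole numbers for each gene. They also deposited RPKM values, each count divided by gene length and library total. The submitters' processing notes name Trimmomatic 0.36, featureCounts of Subread 1.5.1, edgeR 3.12.1 and GRCh38. The aligner, the annotation release and the strand setting of the counting are not given in the sources used here. Every deposited column of values was used.

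The tests were run with edgeR 4.0.16 under R 4.3.3. Genes were filtered by filterByExpr with its default minimum count of 10, scaled by TMM and compared between 25(OH)D and control by the quasi-likelihood test, with no covariate. The Benjamini-Hochberg adjustment covered all 18183 genes tested. SEs and 95% intervals were derived from the p-value and the fold change. The fit was tested on simulated data. Alternatives used DESeq2 1.42.0 and limma 3.58.1 (see the closing section). Shared and repeated 100-base stretches were searched in GENCODE 29 transcripts. Python 3.11.15 with pandas 2.3.3, numpy 2.4.6, scipy 1.17.1 and matplotlib 3.10.9 served for the other steps.

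The 10 genes and the gene lists were chosen with earlier results of these data known, so they are not independent of them. In each list the genes called at an adjusted p under 0.05 were counted, up to 4 with the smallest p in each direction were named, and defining genes near 0 were listed. Genes that overlap a member and the nearest neighbours of the chromosome 11 mucins were also named. Protein sequences were not analysed here. For 1 gene that the naming rule covers, no value is reported.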

Additional observations from a re-analysis of the deposited data

How the results depend on the processing

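The low counts limit most of these results: MUC1, MUC5AC in 25(OH)D and the genes under the filter rest on small counts, and MUC20 on partly shared exons. Each result was recomputed under 8 settings of the values, scaling, filter, test or block and without each library in turn. The counts of 3 higher and 1 lower among the 8 mucin genes not chosen for their fall held in all but 1 of them. That was the log2 of RPKM with 1 added, tested by limma, which left 2 higher and 0 lower. At an unadjusted p under 0.05 it had 1 lower, as edgeR and DESeq2 had at the adjusted one. There MUC4 had 0.11 (adjusted p = 0.0707) and MUC5AC had -0.11 (adjusted p = 0.0614), and MUC2 and MUC5B had -0.70 and -0.40. With 0.1 added in place of 1, MUC2 and MUC5B had -2.65 and -1.93. By construction the added constant shrinks the fold of genes below it. Under limits on fold and unadjusted p, 2 were higher and 1 lower in the edgeR test on counts. With 1 and with 0.1 added to RPKM, MUC1 had 0.17 and 0.82 and MUC4 had 0.11 and 0.60. MUC5AC had -0.11 and -0.83. On RPKM none of these genes thus reached the log2 fold change limit of 1 in either direction. Without each library in turn the log2 fold changes ranged from 1.41 to 1.65 for MUC1, from 1.12 to 1.49 for MUC4, from 0.49 to 0.64 for MUC20, from -4.20 to -3.12 for MUC5AC, from 0.0019 to 0.43 for MUC6, from -5.29 to -4.83 for MUC2 and from -4.81 to -3.95 for MUC5B. TOLLIP ranged from -0.12 to 0.0042. Over all genes, the calls higher and lower were 3138 and 3004, and 2705 and 3613 with upper-quartile factors, 2689 and 3667 with library sizes alone, 2390 and 3164 with 1 added to RPKM, 2200 and 2872 with 0.1 added. At the limits on fold they were 731 and 478, against 243 and 70 with 1 added to RPKM, 538 and 312 with 0.1 added, and 1008 and 753 without the filter.

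Among the lists, other mucins had 1 higher gene, 0 with 0.1 added to RPKM and from 1 to 2 without each library. Mucus gel partners had 1 higher, 2 without the filter, 2 with DESeq2 and from 1 to 2 without each library, and 1 lower, 2 with library sizes alone. Granule genes had 8 higher, 5 with 0.1 added to RPKM. The cause of these changes was not tested.

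The replicate numbers were not taken to pair the libraries. Deviations from the group means of same-numbered libraries correlated at -0.07, -0.01 and -0.05. With the replicate block the fit called 3057 genes higher and 2896 lower, and the mucin counts stayed at 3 higher and 1 lower, with log2 fold changes of 1.50 for MUC1, 1.25 for MUC4, 0.58 for MUC20, -3.53 for MUC5AC and 0.16 for MUC6. No library correlated best with that of its own number.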

Other observations

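MUC13, itself at the floor, lies between 2 genes that were well above it. HEG1, which codes for a transmembrane receptor with a mucin-like ectodomain and lies 11.9 kb from MUC13, had 280, 258 and 268 counts in control and 94, 88 and 90 in 25(OH)D. It fell, with a log2 fold change of -1.43 (SE 0.137, adjusted p = 1.51e-06 by the edgeR test). ITGB5, an integrin subunit gene 4.02 kb away on the other side, had 1977, 1830 and 1809 counts in control and 2055, 2436 and 1987 in 25(OH)D, with a log2 fold change of 0.33 (SE 0.0525, adjusted p = 1.78e-04). Both genes were named after their values were seen.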
